A study of Mus musculus with 8 samples.

Results

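Interleukin-1 family and inflammasome genes were followed in RNA from the peripheral blood of mice. The group held 10 genes of the 21878 gene symbols in the count table, each found by its symbol. They are the ligands Il1b and Il18, the antagonist Il1rn, the decoy receptor Il1r2, the co-receptor Il1rap, the sensors Nlrp3 and Mefv, the adaptor Pycard, the protease Casp1 and the pore-forming Gsdmd. The 8 samples came from female wild-type C57BL/6 mice of 6 to 8 weeks. In the stress group (n = 4), mice spent 6 hours restrained in a ventilated conical tube, and in the control group (n = 4) littermates stayed in their cage. Neither group had food or water over that time, so that fasting was shared by both. The restraint compares tube confinement with the home cage only, and the blood holds all circulating cells, red cells and platelets included.

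Interleukin-1 beta is made as an inactive precursor by neutrophils, monocytes and macrophages. An inflammasome is a protein complex in which a sensor such as NLRP3 or pyrin (the product of Mefv) binds the adaptor ASC (the product of Pycard), which recruits and activates caspase-1. Caspase-1 cuts the precursors of interleukin-1 beta and interleukin-18 into their active forms, and cuts gasdermin D, whose freed part opens pores in the plasma membrane. Released interleukin-1 beta acts through its signalling receptor together with the co-receptor encoded by Il1rap, and is held in check by a receptor antagonist (Il1rn) and by a decoy receptor without a signalling domain (Il1r2). RNA counts measure none of the cleavage steps.

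Control libraries held 31471145 to 39014775 counts and stress libraries 25978683 to 29655725. Haemoglobin genes took 51.9% to 63.8% of the control counts and 61.2% to 75.5% of the stress counts. Levels are given as CPM, the counts of a gene relative to a library size scaled by TMM, a method that takes most genes as unchanged. The scaling factors were 1.01 to 1.77 for control libraries and 0.507 to 1.1 for stress libraries. A gene passed (was called) when its log2 fold change exceeded 1 in size and edgeR's quasi-likelihood test gave it an adjusted p below 0.01, with Benjamini-Hochberg adjustment over 11718 genes. These thresholds follow the methods of the study. The typical (median) gene had a log2 fold change of -0.02 under TMM but -0.82 with library totals as the only scaling, so that a change of a member is relative to the typical gene. Markers of several blood cell types moved with the groups. Of 14 neutrophil markers 10 were called up and none down, with the neutrophil-defining Ly6g at 2 to 18 counts per control library and 12 to 40 per stress library. Of 10 classical monocyte markers 6 were called up, among them the defining Ccr2 and F13a1, and the defining Ly6c2 overlapped between groups (11.4 to 21.5 CPM in controls, 17.3 to 33.6 CPM after stress). The others not called, Ms4a4c, Ms4a6c and Ly86, had log2 fold changes of -0.10, 0.02 and 0.23. The nonclassical monocyte markers had log2 fold changes below 0 in 7 of 7 (median -0.53) and an unadjusted p under 0.05 in 5. Of 10 platelet markers 3 were called up. All 10 were higher in every stress sample than in every control, as were 11.1% of all tested genes. The 10 B cell markers had log2 fold changes below 0, and 8 of them an unadjusted p under 0.05. Of 10 T cell markers 0 reached that p, and 0 of the T cell, NK cell and erythroid markers were called. The 9 tested erythroid markers nevertheless all had log2 fold changes above 0 (median 1.04), and 4 of them an unadjusted p under 0.05. Among all tested genes 1.69% were called up, and 18.2% were higher and 13% lower at that p. By flow cytometry the study reported more neutrophils but fewer monocytes, T cells, B cells and NK cells in blood after restraint. The part of these cells in the results was not tested. In whole blood, fewer cells of a type and less RNA per cell cannot be told apart.

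The antagonist, the decoy receptor, the co-receptor and both inflammasome sensors rose after restraint, while the adaptor, the protease and the pore-forming protein had fold changes near that of the typical gene. All 10 members were tested. In the stress group 5 of the 10, Il1r2, Nlrp3, Mefv, Il1rn and Il1rap, were called up and 0 down, against 1.69% up and 0.0171% down among all tested genes. On library totals alone 1 of the 5, Il1r2, was still called, and Nlrp3, Mefv, Il1rn and Il1rap had log2 fold changes of 0.73, 0.71, 0.58 and 0.43 (adjusted p = 0.0631, 0.0848, 0.144 and 0.267, edgeR's quasi-likelihood test). At an unadjusted p under 0.05 edgeR put 6 members higher and 0 lower, against 18.2% and 13% of all tested genes, and DESeq2 called 0 members down. For 6 of the 10, the 5 called genes and Il1b, no control sample reached the lowest stress sample, which held for 11.1% of all tested genes. The median log2 fold change of the 10 members was 1.15. The other members, Il18, Pycard, Casp1 and Gsdmd, had log2 fold changes between -0.21 and 0.05.

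**Figure D1:**
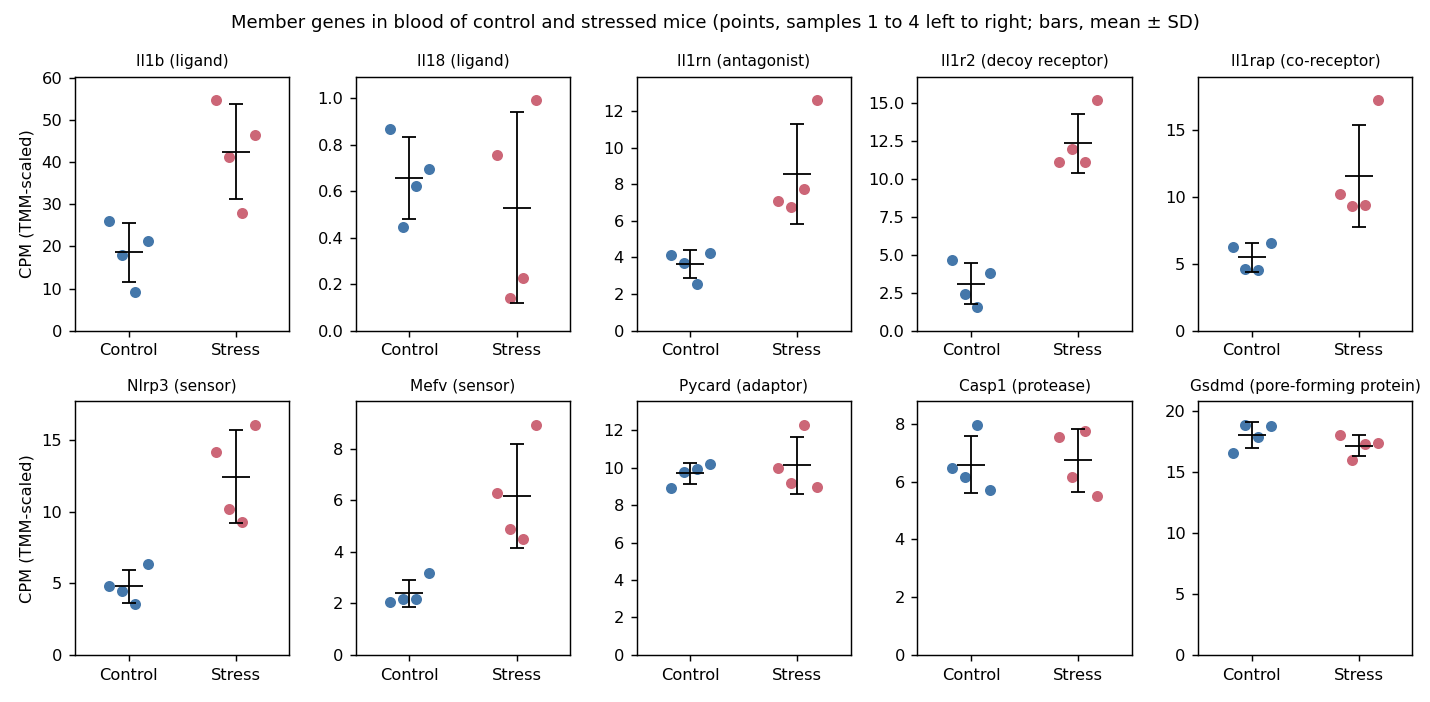
Level of each member in CPM (vertical axis, from 0, with its own range in each panel) in the control and stress groups, with 1 point per sample and the mean and SD of 4 samples. The stress points sit above the control points for Il1b, Il1rn, Il1r2, Il1rap, Nlrp3 and Mefv, and the groups overlap for Il18, Pycard, Casp1 and Gsdmd.

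Il1b encodes the central inflammatory cytokine of the family. In control replicates 1 to 4 it stood at 26, 18, 9.26 and 21.2 CPM, and in stress replicates 1 to 4 at 54.8, 41.2, 27.9 and 46.4 CPM. The lowest stress sample, replicate 3, lay just above the highest control sample, replicate 1, and control replicate 3 stood well under the other controls. The group means were 18.6 ± 7.05 and 42.6 ± 11.2 CPM (SD, n = 4 each), 2.30 times higher in the stress group. The log2 fold change was 1.20 with a standard error of 0.28, and the adjusted p was 0.015 (edgeR's quasi-likelihood test), so that Il1b missed the threshold of 0.01 and was not called. DESeq2, the tool of the study, called it, with a log2 fold change of 1.20 and an adjusted p of 0.000551, among the 2.45% of genes that DESeq2 called up. Il1b lies on GRCm38 chromosome 2, from 129364570 to 129371139 on the minus strand. The 250 bases before its RefSeq start (GRCm38.p6, chr2:129371140-129371389, minus strand) are shown because Il1b is the ligand on which the other genes act. Capitals mark the letters TATAAA of a TATA box, which begin 31 bases before the start. Among 32817 RefSeq windows of this length, 12.4% hold TATAAA on either strand.
Il1b: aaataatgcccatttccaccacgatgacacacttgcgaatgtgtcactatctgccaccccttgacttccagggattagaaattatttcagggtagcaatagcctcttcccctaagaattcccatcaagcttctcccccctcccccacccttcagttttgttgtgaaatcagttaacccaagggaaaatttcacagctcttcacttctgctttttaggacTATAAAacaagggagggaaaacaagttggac

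Il18, the other ligand that caspase-1 cuts, was scarce. It had 32, 23, 43 and 22 counts in control replicates 1 to 4 and 17, 3, 3 and 31 in stress replicates 1 to 4. In CPM the stress samples spread from 0.139 to 0.992 and enclosed the control samples, from 0.445 to 0.869. The log2 fold change of -0.21 had a standard error of 0.51 (adjusted p = 0.823, edgeR's quasi-likelihood test), which is a wide error for a gene of so few counts.

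Both genes whose products restrain the cytokine rose. Il1rn, the receptor antagonist, stood at 4.13, 3.68, 2.54 and 4.22 CPM in control replicates 1 to 4 and at 7.09, 6.77, 7.74 and 12.6 CPM in stress replicates 1 to 4. All stress samples were above all controls, with stress replicate 4 far above the other stress samples. The log2 fold change was 1.26 (standard error 0.22, adjusted p = 0.00318, edgeR's quasi-likelihood test). It fell to 0.99 without stress replicate 4, and the gene was then not called. Il1rn lies on GRCm38 chromosome 2, from 24336853 to 24351494 on the plus strand, and RefSeq gives it 3 start sites. The gene counts do not separate the secreted form from the intracellular forms that start at different exons. The window before the first start (GRCm38.p6, chr2:24336610-24336859, plus strand) is shown for comparison with that of Il1b. Capitals mark an AP-1 match, TGANTCA, which 6.75% of the 32817 windows hold on either strand.
Il1rn: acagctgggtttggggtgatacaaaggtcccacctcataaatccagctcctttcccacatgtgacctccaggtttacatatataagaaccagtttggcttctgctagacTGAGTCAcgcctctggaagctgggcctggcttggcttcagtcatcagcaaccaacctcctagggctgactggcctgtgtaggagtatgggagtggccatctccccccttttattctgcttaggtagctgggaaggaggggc

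Il1r2, the decoy receptor, had the largest increase of the 10. It stood at 4.64, 2.42, 1.57 and 3.78 CPM in control replicates 1 to 4 and at 11.1, 12, 11.1 and 15.2 CPM in stress replicates 1 to 4. No control sample came near the stress samples (4.64 CPM at most, against 11.1 CPM at least), and the stress samples lay close together while the controls were spread out. The mean rose from 3.11 ± 1.37 to 12.3 ± 1.94 CPM (SD, n = 4 each), or 2.03 as log2 fold change (standard error 0.28, adjusted p = 0.00124, edgeR's quasi-likelihood test). It was the one member called on library totals alone, where 0.119% of all genes were called up (log2 fold change 1.36, adjusted p = 0.00745). Il1r2 lies on GRCm38 chromosome 1, from 40074079 to 40125231 on the plus strand.

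Il1rap, whose product completes the signalling receptor and is also bound by the decoy, showed the smallest increase among the called members. It stood at 6.25, 4.60, 4.51 and 6.53 CPM in control replicates 1 to 4 and at 10.2, 9.27, 9.41 and 17.2 CPM in stress replicates 1 to 4. The groups did not overlap, and stress replicate 4 was again far above the others. The log2 fold change was 1.1 (standard error 0.21, adjusted p = 0.0049, edgeR's quasi-likelihood test). It was 0.83 without stress replicate 4 and not called. The gene shares 552 of its 11360 annotated exon bases with Gm20319 on the opposite strand, and the use of strand in counting is not given in the sources used here. The signalling receptor itself, Il1r1, was too scarce to test, with at most 19 counts in a control and at most 6 in a stress library.

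Both sensor genes rose. Nlrp3, which responds to ion loss and cell damage, stood at 4.81, 4.49, 3.55 and 6.34 CPM in control replicates 1 to 4 and at 14.2, 10.2, 9.26 and 16.1 CPM in stress replicates 1 to 4. Each stress sample was above each control sample. The mean rose from 4.80 ± 1.16 to 12.4 ± 3.24 CPM (SD, n = 4 each), or 1.40 as log2 fold change (standard error 0.20, adjusted p = 0.00126, edgeR's quasi-likelihood test). Nlrp3 lies on GRCm38 chromosome 11, from 59541568 to 59566956 on the plus strand, with 2 RefSeq start sites. The windows before both are shown because they differ in the motifs they hold. The outer one (GRCm38.p6, chr11:59541319-59541568, plus strand) has a match to the NF-kappaB consensus in capitals, found in 3.90% of the 32817 windows. The inner one (chr11:59542436-59542685) has 3 matches to GAGGAA or its reverse complement in capitals, the core letters bound by PU.1, a factor of myeloid cells. At least 1 such match was found in 23.3% of windows, and the share with 3 was not counted.
Nlrp3, outer start: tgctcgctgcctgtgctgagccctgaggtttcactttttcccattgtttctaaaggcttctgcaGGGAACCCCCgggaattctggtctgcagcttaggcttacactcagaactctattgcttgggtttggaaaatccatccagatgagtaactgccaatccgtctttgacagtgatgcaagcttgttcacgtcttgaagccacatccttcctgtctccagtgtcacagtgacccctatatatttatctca
Nlrp3, inner start: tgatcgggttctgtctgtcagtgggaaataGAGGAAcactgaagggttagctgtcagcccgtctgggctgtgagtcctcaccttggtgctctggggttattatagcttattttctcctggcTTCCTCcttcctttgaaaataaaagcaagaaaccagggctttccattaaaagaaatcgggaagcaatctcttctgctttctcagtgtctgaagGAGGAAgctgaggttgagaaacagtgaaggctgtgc

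Mefv, which encodes the inflammasome sensor pyrin, stood at 2.04, 2.17, 2.15 and 3.18 CPM in control replicates 1 to 4. In stress replicates 1 to 4 it stood at 6.29, 4.87, 4.48 and 8.93 CPM. The groups did not overlap, and control replicate 4 was well above the other controls. The log2 fold change was 1.39 (standard error 0.23, adjusted p = 0.00241, edgeR's quasi-likelihood test). The gene lies on GRCm38 chromosome 16, from 3707218 to 3718097 on the minus strand, and its 250-base window held none of the motifs searched.

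None of the 3 genes downstream of the sensors passed the test (0 with edgeR at an unadjusted p under 0.05, 0 called by DESeq2). Pycard, the adaptor, stood at 8.91, 9.79, 9.94 and 10.2 CPM in control replicates 1 to 4 and at 9.99, 9.18, 12.3 and 8.99 CPM in stress replicates 1 to 4. Its groups overlapped, and its log2 fold change was 0.05 (standard error 0.12). Pycard shares 485 of its 3800 annotated exon bases with Gm45205 on the opposite strand, so that without the strand setting its counts, and the ratios to it given further on, may hold reads of that gene. Casp1, the protease, stood at 6.49, 6.15, 7.98 and 5.71 CPM in the controls and at 7.54, 6.17, 7.74 and 5.50 CPM in the stress samples, in the same order of replicates. Its log2 fold change was 0.02 (standard error 0.16), and its groups overlapped almost fully. Gsdmd, the pore-forming protein, had the smallest standard error of the 10 members, at 16.6, 18.9, 17.9 and 18.8 CPM in the controls and 18, 16, 17.3 and 17.4 CPM in the stress samples. The groups overlapped, and its log2 fold change was -0.07 (standard error 0.10). The adjusted p-values of these 3 genes lay between 0.65 and 0.952 (edgeR's quasi-likelihood test). On library totals alone each was lower in the stress group, with log2 fold changes of -0.77 for Pycard, -0.83 for Casp1 and -0.86 for Gsdmd (adjusted p = 0.0473, 0.0387 and 0.0328, same test). Of all tested genes 49.6% were lower on that scale at an adjusted p below 0.05, and 6.22% were called down, with none of the 3 members among them. For contrast with the sensors, the window before the Pycard start (GRCm38.p6, chr7:127993868-127994117, minus strand) is given with 1 match to TTGCNNAA (C/EBP) and 1 to GAGGAA in capitals, both on the reverse strand. The letters TTGCNNAA occur in 9.57% of windows.
Pycard: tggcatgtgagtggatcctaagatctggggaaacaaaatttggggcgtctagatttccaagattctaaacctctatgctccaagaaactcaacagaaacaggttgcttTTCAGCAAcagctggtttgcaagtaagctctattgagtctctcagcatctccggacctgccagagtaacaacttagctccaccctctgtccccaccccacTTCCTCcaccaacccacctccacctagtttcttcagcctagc

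Over the members, 9 of the 10 had a window in the RefSeq promoter table, 12 windows in all. PU.1 letters were found in windows of Nlrp3, Pycard and Casp1, TATAAA in those of Il1b and Il18, and the NF-kappaB consensus in that of Nlrp3. The core ACANNNTGT bound by the glucocorticoid receptor was found in 0 of the 12 windows and in 5.84% of the 32817. No motif was shared by the members that were called, which says only that these letters were not in these windows.

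**Figure D2:**
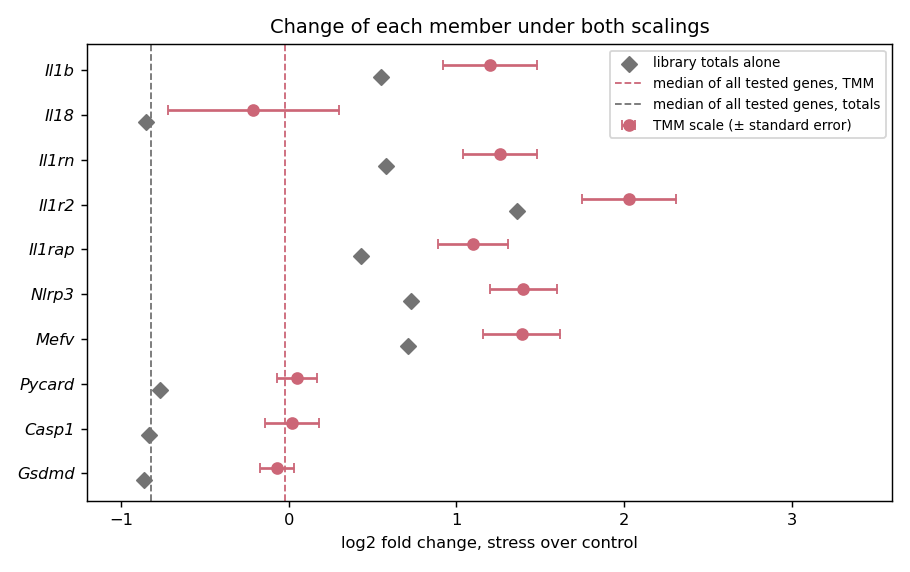
Log2 fold change of each member, stress over control (horizontal axis), on the TMM scale with its standard error (circles) and on library totals alone (diamonds), with the median of all tested genes on each scale as a dashed line (-0.02 and -0.82). Il1b, Il1rn, Il1r2, Il1rap, Nlrp3 and Mefv lie above the median on both scales, and Pycard, Casp1 and Gsdmd lie close to it on both.

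How many members were called depended on which samples entered. Without control replicates 1, 2, 3 or 4 in turn 6, 2, 3 and 5 members were called up, beside 1.95%, 0.659%, 0.827% and 2.93% of all tested genes. Without stress replicates 1, 2, 3 or 4 in turn 4, 5, 5 and 3 members were called up, beside 1.29%, 1.72%, 1.5% and 1.51%. Il1r2 and Nlrp3 passed in each of these 8 fits, Mefv in 7, Il1rn in 5 and Il1rap in 4. Il1b passed in 1, without control replicate 1. The same 5 members were called with RLE (1.83% of all genes) or upper quartile normalization (1.66%), with no count filter (1.33%), with 10 counts asked of every sample (1.77%) and without the haemoglobin genes (1.71%). Il1b joined them under limma-voom (2.0%) and at an adjusted p below 0.05 (2.88%).

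Levels per length were compared as CPM per kilobase of annotated exon. In the control group the order was Il1b (9.76 ± 3.70), Gsdmd (7.59 ± 0.452), Casp1 (4.4 ± 0.657), Pycard (2.55 ± 0.146), Il1r2 (1.63 ± 0.719), Nlrp3 (1.18 ± 0.285), Mefv (0.734 ± 0.165), Il1rn (0.658 ± 0.139), Il18 (0.638 ± 0.170) and Il1rap (0.482 ± 0.0937), each with its SD (n = 4). Of the neighbours in that order, Gsdmd and Casp1, and Casp1 and Pycard, had ranges that did not overlap, and all others overlapped. In the stress group Il1b stood at 22.3 ± 5.89 CPM per kilobase, above the range of Gsdmd (7.22 ± 0.365), which it had overlapped in the controls. Il1r2 moved from the fifth place to the third, at 6.46 ± 1.02, with a range that overlapped that of Gsdmd and lay above that of Casp1 (4.50 ± 0.72). Nlrp3 (3.07 ± 0.799) and Pycard (2.66 ± 0.399) overlapped in the stress group and did not in the controls, where Pycard was higher. The exon length counts all annotated isoforms, so the order of genes with long rarely used exons, such as Il1rap, depends on it. The annotated exons of Pycard, 3800 bases, fill most of its span on GRCm38 chromosome 7, from 127989708 to 127993867. Its place beside Nlrp3, and the level of the ratios to it given further on, therefore depend on that length. The differences between groups do not.

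Ratios of partner genes within a sample do not depend on library scaling, and 6 were compared. They were taken as log2 ratios of counts per kilobase and tested with a two-sided exact permutation test over the 70 assignments of 8 samples, whose smallest p is 0.0286, and adjusted by Benjamini-Hochberg over the 6. For 4 of the 6 the groups did not overlap and the ratio was higher in the stress group (exact permutation test, p = 0.0286 and adjusted 0.0429 for each). That adjusted value rests on 4 ratios reaching the smallest p. The ratios come from the same counts as the member changes above and are not separate support for them. Nlrp3 and Mefv are both set against Pycard, and the share of other gene pairs that separate was not computed. The first pair sets the cytokine against its antagonist. The ratio of Il1b to Il1rn was 4.19, 3.83, 3.40 and 3.86 in control replicates 1 to 4 and 4.48, 4.14, 3.38 and 3.41 in stress replicates 1 to 4 on the log2 scale. The groups overlapped, with means of 3.82 ± 0.32 and 3.85 ± 0.54 (SD, n = 4 each; exact permutation test, p = 0.971). Leaving out one sample at a time gave differences from -0.17 to 0.19.

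The RNA ratios of both sensors to the adaptor were higher in the whole blood of the stress group. Ratios within a cell type, and of the proteins, were not measured. The log2 ratio of Nlrp3 to Pycard was -0.98, -1.22, -1.58 and -0.78 in control replicates 1 to 4 and 0.41, 0.06, -0.50 and 0.74 in stress replicates 1 to 4. Its mean rose by 1.32, from -1.14 ± 0.34 to 0.18 ± 0.53 (SD, n = 4 each). The ratio of Mefv to Pycard rose by 1.28 on the log2 scale, from -1.82 ± 0.25 to -0.53 ± 0.60. Il1r2 rose against Il1rap by 1.05, from 1.66 ± 0.45 to 2.71 ± 0.23, so that the decoy rose more than the co-receptor. Il1b rose against Il18 by 1.85, from 3.86 ± 0.61 to 5.70 ± 1.05, a ratio that rests on 3 counts of Il18 in stress replicates 2 and 3. The ratio of Casp1 to Gsdmd was -0.80 ± 0.25 in the controls and -0.69 ± 0.22 in the stress group (exact permutation test, p = 0.6, adjusted 0.72). With one sample left out, the shift kept its direction in each of the 4 that passed, between 1.13 and 1.54 for Nlrp3 to Pycard, though the smallest p is then 0.0571.

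**Figure D3:**
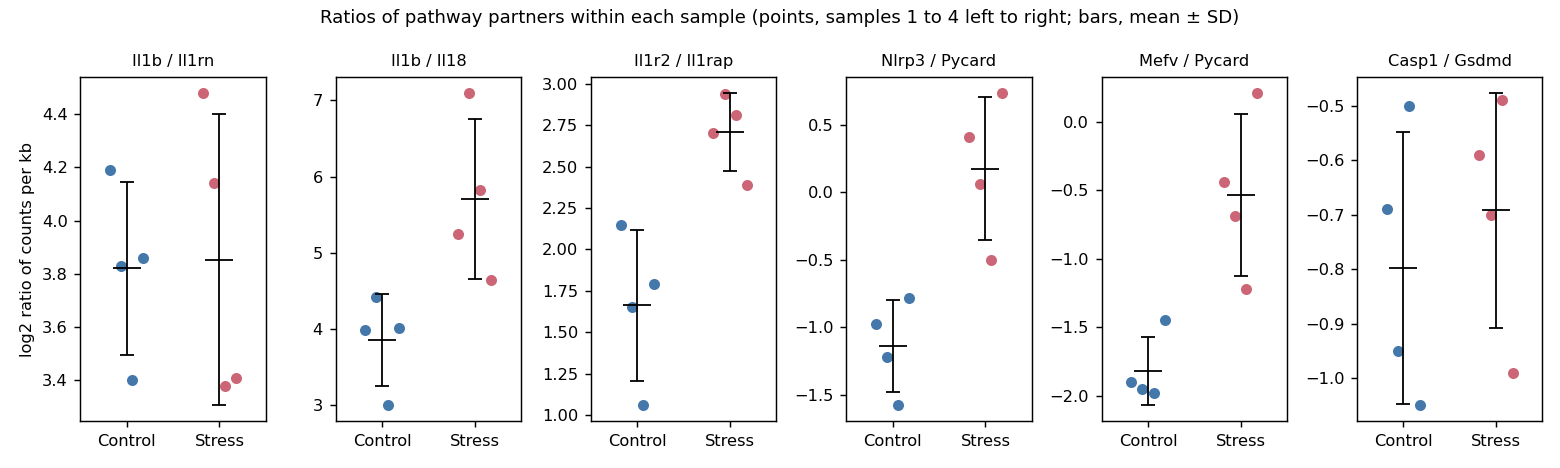
Log2 ratio of counts per kilobase of 6 pairs of genes (vertical axis, with its own range in each panel) in the control and stress groups, with 1 point per sample and the mean and SD of 4 samples. The stress points lie above all control points for Il1b over Il18, Il1r2 over Il1rap, Nlrp3 over Pycard and Mefv over Pycard, and overlap for Il1b over Il1rn and Casp1 over Gsdmd.

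Since 10 of 14 neutrophil and 6 of 10 classical monocyte markers were called up, each member was also set against them within a sample, as its log2 CPM minus the mean log2 CPM of the markers. The 14 neutrophil markers summed to 210.0 to 413.0 CPM in the controls and 658.0 to 966.0 CPM in the stress group, and the 10 classical monocyte markers to 383.0 to 485.0 and 728.0 to 1250.0 CPM. Of 20 comparisons (10 members against 2 lists), 0 passed an adjusted p below 0.05 in the exact permutation test, and 8 had the smallest possible p of 0.0286 (adjusted 0.0714). With this number of samples 12 of the 20 would have to reach that p for any to pass. These 8 were Il18 (with 3 counts in stress replicates 2 and 3), Pycard, Casp1 and Gsdmd against either list. Each was lower relative to the markers in every stress sample than in every control sample. The neutrophil and classical monocyte markers had median log2 fold changes of 1.49 and 1.29, against -0.02 for all tested genes. A gene that did not change therefore falls against them, and the share of all tested genes that did so was not computed. Gsdmd went from 0.94 ± 0.34 to -0.58 ± 0.22 against the neutrophil markers and from 0.16 ± 0.19 to -1.30 ± 0.49 against the monocyte markers (SD, n = 4 each). Relative to the neutrophil markers the difference, stress minus control, was -1.40 for Pycard and -1.42 for Casp1 on the log2 scale.

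The 5 called members and Il1b overlapped between groups once set against the mean of the markers. Nlrp3 stood at -0.98 ± 0.07 relative to the neutrophil markers in the controls and at -1.08 ± 0.29 in the stress group (SD, n = 4 each; exact permutation test, p = 0.743). Il1b went from 0.89 ± 0.38 to 0.69 ± 0.47 (p = 0.514, same exact test) and Mefv from -1.97 ± 0.27 to -2.11 ± 0.30 (p = 0.543, same exact test). The differences of Il1rn and Il1rap were -0.25 and -0.42, also with overlapping groups. The outcome against neutrophils depended on how the markers were summarised. Against their median, Nlrp3 (-0.48), Il1rn (-0.63) and Il1rap (-0.80) were lower in every stress sample than in every control (exact permutation test, p = 0.0286, adjusted 0.0519). Against the 3 defining neutrophil markers alone, Il1rap (-0.94) and Mefv (-0.66) were (p = 0.0286, adjusted 0.0571, same exact test). Il1r2 was the one member whose mean was higher relative to both lists, by 0.62 against neutrophil and 0.69 against monocyte markers, with overlapping groups and adjusted p-values of 0.156 and 0.352 (exact permutation test). Its difference against neutrophil markers shrank to 0.24 with their median and 0.09 with the defining markers alone. The part of cell numbers in the rise of the members was not tested.

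**Figure D4:**
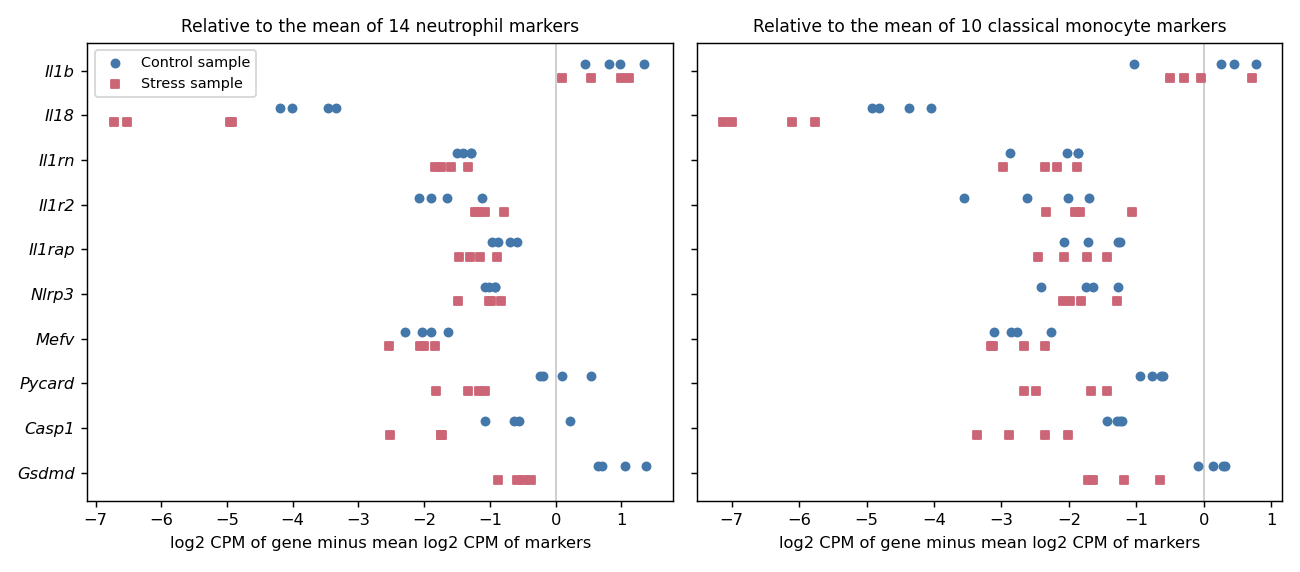
Log2 CPM of each member minus the mean log2 CPM of 14 neutrophil markers (left) or 10 classical monocyte markers (right), with 1 point per control sample (circles) and stress sample (squares). Il18, Pycard, Casp1 and Gsdmd lie lower in all stress samples than in all controls in both panels, and the other members overlap.

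The genes whose profile over the 8 samples was most like that of a called member were found by the root mean square difference of centred log2 CPM, which is 0 for the same profile. Nearest to Nlrp3 were Thbs1 (0.13), Adam8 (0.14) and Fcgr3 (0.15), and nearest to Mefv were Csf2rb (0.13), Nlrp3 itself (0.15) and Emilin2 (0.16). Mefv came next after these for Nlrp3, at 0.15. Nearest to Il1rn were Cd300lf (0.11), Gm5150 (0.14) and Pygl (0.14), with Il1rap in the sixth place (0.16). Il1rap lay nearest to Lilrb4a (0.15), Lilr4b (0.15) and Il1rn (0.16). Nearest to Il1r2 were Hdc (0.23), Tarm1 (0.23) and Arg2 (0.25), at larger distances, and Hdc is one of the neutrophil markers. Il18 was among the least alike for each of the 5, at rank 11077 to 11231 of the tested genes.

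The wider pathway was read from 4 further lists, in which 48 of 62 genes in the table were tested. Of these 48, 1 was called up and 0 were called down by edgeR, and 0 were called down by DESeq2. At an unadjusted p under 0.05 edgeR put 14 higher and 4 lower. The 1 of 48 stands beside 1.69% of all tested genes called up, and the 14 and 4 of 48 beside 18.2% higher and 13% lower at that p. The 8 tested of 16 other interleukin-1 family genes split evenly, 4 higher and 4 lower, around a median of 0.04 on the log2 scale. Il1f9, the ligand interleukin-36 gamma, stood at 5.46, 4.97, 2.64 and 7.66 CPM in control replicates 1 to 4 and at 10.3, 10.9, 11.9 and 19.6 CPM in stress replicates 1 to 4. The groups did not overlap, but its adjusted p of 0.0105 missed the threshold (log2 fold change 1.38, standard error 0.29, edgeR's quasi-likelihood test). Il18r1, the interleukin-18 receptor chain carried by lymphocytes, went the other way, from 16.8 ± 0.905 to 10.5 ± 1.68 CPM (SD, n = 4 each). It had a log2 fold change of -0.67 (standard error 0.12) with adjusted p = 0.0034 in the same test, past the p threshold but under the fold threshold. At that adjusted p alone 0.324% of all genes were lower. Sigirr, an inhibitory receptor of the family, did not pass (log2 fold change -0.18, adjusted p = 0.263, same test). Il1a had 11 to 35 counts per sample and a log2 fold change of -0.05 (standard error 0.40).

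Among the 21 tested of 23 other inflammasome genes, 13 were higher and 8 lower (median log2 fold change 0.23), of which 10 and 2 had an unadjusted p under 0.05, beside 18.2% and 13% of all tested genes. Nlrp12, a regulatory member of the NLR family in myeloid cells, was the one called. It was not called on library totals alone (log2 fold change 0.49, adjusted p = 0.208, edgeR's quasi-likelihood test) or without control replicate 2 or 3 or stress replicate 1 or 4. With TMM and all samples it rose from 5.09 ± 1.31 to 11.2 ± 3.06 CPM (SD, n = 4 each; log2 fold change 1.17, standard error 0.21, adjusted p = 0.00411, edgeR's quasi-likelihood test). Ninj1, which ruptures the membrane of dying cells downstream of gasdermin pores, stood at 30.3 ± 7.59 and 56.6 ± 8.01 CPM, a log2 fold change of 0.91 (adjusted p = 0.00411). Dfna5, which encodes gasdermin E, stood at 1.49 ± 0.0693 and 2.90 ± 0.297 CPM, a log2 fold change of 0.96 (adjusted p = 0.00608). Both passed the p threshold (as 4.6% of all tested genes did upward) but not the fold threshold, and in both the groups did not overlap. On library totals alone Ninj1 and Dfna5 had log2 fold changes of 0.13 and 0.19 (adjusted p = 0.749 and 0.69, edgeR's quasi-likelihood test). Aim2, the sensor of DNA, and Nlrc4, the partner of the NAIP proteins, were lower in every stress sample than in every control, with log2 fold changes of -0.47 and -0.46 and neither called (adjusted p = 0.0328 and 0.112, edgeR's quasi-likelihood test), an order held by 9.87% of all tested genes. They were named after their values were seen. Nlrp1a and Nlrp1b are related genes, as are the Naip genes. How reads that match several genes were counted is not given in the sources used here, so that their counts are uncertain.

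Of 19 genes of interleukin-1 signalling, 9 stood above 0 and 10 below it around a median of -0.04 on the log2 scale. None was called with edgeR or DESeq2, and an unadjusted p under 0.05 was reached by 3 on the higher and 1 on the lower side, beside 18.2% and 13% of all tested genes. Myd88, the adaptor of the receptor, stood at 15.7 ± 1.13 and 22.8 ± 1.74 CPM (log2 fold change 0.54, adjusted p = 0.00467, edgeR's quasi-likelihood test). Tollip, an inhibitor of the same receptor complex, stood at 48.4 ± 8.53 and 78.0 ± 7.98 CPM (log2 fold change 0.69, adjusted p = 0.00513, same test). An adjusted p below 0.01 was reached upward by 4.6% of all tested genes. On library totals alone Myd88 and Tollip had log2 fold changes of -0.23 and -0.07 (adjusted p = 0.564 and 0.868, same test). Tab3 had an adjusted p of 0.143. The neutrophil granule proteases Elane, Prtn3 and Ctsg, which can also cut interleukin-1 beta, and Mme were not tested, with at most 6 counts in any sample.

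**Figure D5:**
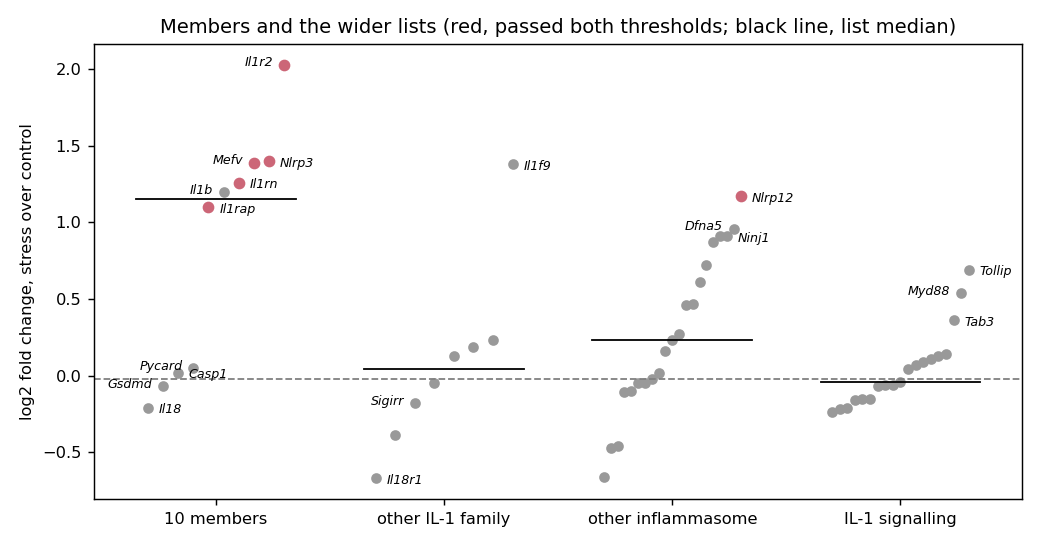
Log2 fold change, stress over control (vertical axis), of the 10 members and the tested genes of 3 wider lists, sorted within each list, with genes called up in red, the list median as a black line, the members and the genes named by rule labelled, and the median of all tested genes dashed. Of the members 5 are red, and of the wider lists Nlrp12 alone is.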

How the data were processed

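Whole blood RNA gave 1 library for each of 4 control and 4 stress samples. The values the authors deposited are unnormalized read counts by gene symbol. HISAT2, featureCounts and mm10 are named in the submitters' processing notes without versions. Annotation, strand setting and filters are not given in the sources used here. Testing took the genes that reached 10 counts in 4 or more samples (median count of a tested gene 342.5 in control and 168.5 in stress libraries) with R 4.3.3 and edgeR 4.0.16 (TMM, robust quasi-likelihood). DESeq2 1.42.0 and limma 3.58.1 served as alternatives, beside other normalizations, filters, a replicate block and omission of each sample in turn. On data simulated for this comparison edgeR recovered 196 of 200 genes with a log2 fold change of 2 in size. It made 0 false calls among the 11706 genes tested. Recovery at the smaller log2 fold changes of Il1rap, Il1rn, Mefv and Nlrp3 (1.10 to 1.40) was not tested. The simulation raised as many genes as it lowered and held no other difference in RNA composition between groups. It therefore says nothing of the TMM scaling, on which the number of members called depends. Log2 CPM used a prior count of 2 and ratios one of 0.5. Coordinates and exon lengths come from GENCODE M21 (GRCm38) and promoters from RefSeq (GRCm38.p6). The labels do not say whether replicates are separate animals, so p-values measure the spread between these samples, which may be technical. Named genes were all members, genes of a wider list that were called or among the 3 smallest p, and the 3 nearest profiles of each called member. Il1a, Il1r1, Nlrp1a, Nlrp1b, Aim2, Nlrc4 and the 4 proteases were named outside this rule, after their values were seen. The members and lists were chosen with earlier results of these data known.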

Additional observations from a re-analysis of the deposited data

Results flagged for a closer look

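In 4 of 32 groups of 4 values (10 members and 6 ratios in each group), one sample stood apart from the other 3 by Dixon's 95% criterion, which chance meets in about 1 of 20 groups. Stress replicate 4 had 12.6 CPM of Il1rn, against 6.77 to 7.74 in the other stress samples. The same sample had 17.2 CPM of Il1rap, against 9.27 to 10.2. Control replicate 4 had 3.18 CPM of Mefv, against 2.04 to 2.17 in the other controls, and a log2 ratio of Mefv to Pycard of -1.45, against -1.98 to -1.90.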

How the results depend on the processing

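The log2 fold changes of the 5 called members stayed above 0 in all 17 alternative fits. Il1r2 was called in 17 of 17, Nlrp3 in 16, Mefv in 15, Il1rn in 13 and Il1rap in 12, and Il1b in 4. The number of members called up went from 5 to 1 with library totals alone in place of TMM and to between 2 and 6 with one sample left out, with 2 without control replicate 2, 3 without control replicate 3 and 3 without stress replicate 4. In the 4 wider lists the number called up was 0 on library totals (and 3, Nlrc4, Aim2 and Il18r1, were called down), and 2 (Nlrp12 and Il1f9) with RLE normalization, DESeq2, limma-voom, the replicate block or an adjusted p below 0.05, and between 0 and 3 with one sample left out (0 without control replicate 2 or 3 or stress replicate 1 or 4, 2 without control replicate 1 or stress replicate 3, 3 without control replicate 4). The cause of these differences was not tested. Deviations of same-numbered samples had correlations between -0.16 and 0.0621, and not every sample correlated best with its own number. With so few samples this cannot tell whether same-numbered samples were paired, and the labels give only the number. With the replicate block 6 members were called up, Il1b being added (log2 fold change past 1, adjusted p = 0.000627, edgeR's quasi-likelihood test). With a replicate block by sign changes of 4 differences, or with one sample left out, 0 of the 6 ratios passed, since the smallest exact p is then 0.125 or 0.0571. Relative to markers 0 of 20 passed with the mean, the median or the defining markers. With the block or one sample left out none could pass, so these fits say nothing of stability. Il18, with 3 to 43 counts per sample, is limited by depth.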
